A study of Mus musculus with 6 samples.

Results

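The genes described here encode the water channel of the astrocyte endfoot and proteins that hold it at the vessel wall. With them stand a further aquaporin, an adhesion pair and a cation channel. The genes were the rows of the deposited mouse gene table that carried the symbols Aqp4, Aqp9, Dag1, Dtna, Dmd, Utrn, Mlc1, Hepacam and Trpv4. All 9 were listed among the 45777 genes of the table, and all 9 had a read count in each of the 6 samples, so that all entered the test with 22337 genes in total. The question was whether the genes of the anchoring complex move with Aqp4 between samples.

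RNA had been sequenced from astrocytes of male Aldh1l1 cre/ERT2; tdTomato fl/fl mice on a C57BL/6 background, labelled WT. Mice of both groups received tamoxifen (75 mg/kg on 5 consecutive days), which activates Cre and thereby the fluorescent marker tdTomato wherever the Aldh1l1 promoter is in use, so the marked cells are those in which that promoter was active. At 8 weeks of age they were given a single intraperitoneal dose of STZ (streptozotocin, 150 mg/kg), which kills pancreatic beta cells, or of its solvent, sodium citrate buffer (vehicle). STZ-treated mice with a blood glucose over 250 mg/dl were kept. Brains were taken 21 days after the injection and dissociated, and the marked cells were sorted. Each sample was a pool of cells from 3 brains, with 3 such samples for vehicle and 3 for STZ.

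Astrocyte endfeet wrap the vessels of the brain and carry dense clusters of the water channel Aqp4. The clusters are held through adaptor proteins and dystrobrevin to dystrophin, which binds dystroglycan in the membrane, and dystroglycan grips laminin and agrin of the basal lamina outside the cell. Mlc1 and the adhesion molecule Hepacam (GlialCAM) form a second endfoot and astrocyte contact complex, and the cation channel Trpv4 is known for its part in the swelling response of glia. Aqp9 is an aquaglyceroporin, which passes glycerol and other small solutes as well as water.

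Total counts ranged from 52529048 to 58749115 per sample, and 0 of 15 sample pairs held identical values. The 8 astrocyte markers Aldh1l1, Slc1a2, Slc1a3, Aldoc, Gfap, S100b, Sox9 and Gjb6 summed to 4496 to 5066 FPKM with vehicle and 4936 to 5391 FPKM with STZ. Markers of other cells were present and uneven. The 8 endothelial markers summed to 28.9 to 106 FPKM with vehicle and 112 to 209 FPKM with STZ. Of the 8, 7 had an unadjusted p under 0.05, all higher in STZ, as 5.63% of all tested genes did. Their adjusted p-values from edgeR ran from 0.306 to 0.471 over the 8, and 0 of them had an adjusted p under 0.05 by DESeq2. The 8 pericyte and smooth muscle markers summed to 36.2 to 57.2 FPKM with vehicle and 55.8 to 76.2 FPKM with STZ. Of these 8, 4 had an unadjusted p under 0.05, all higher in STZ, as 5.63% of all tested genes did. All 4 had an adjusted p under 0.05 by DESeq2, as 0.993% of genes did on the higher side. They were Tagln, Acta2, Myh11 and Rgs5, with log2 fold changes of 2.65, 1.30, 1.43 and 1.02. The other 4, Pdgfrb, Vtn, Kcnj8 and Abcc9, had -0.08, 0.07, 0.50 and 0.87, with unadjusted p-values of 0.108 to 0.493 from edgeR. The 6 neutrophil markers summed to 135 to 926 FPKM with vehicle and 599 to 1323 FPKM with STZ. The 8 markers of choroid plexus and ependyma, most of whose sum is Ttr, gave 4331 to 13024 FPKM with vehicle and 7069 to 11888 FPKM with STZ. Vehicle replicate 1 had the lowest sum of choroid plexus markers and of endothelial markers among the 6 samples. The summed markers of oligodendrocytes, microglia, neurons and fibroblasts overlapped between the groups, and 0 of the markers of any list were at 0 in all 6 samples.

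The authors' FPKM values, which divide by transcript length, set the order of the members' levels. Mlc1 was highest, with a mean of 511 FPKM ± 57.1 (SD, n = 6). Aqp4 followed with 182 FPKM ± 33.1 and Hepacam with 162 FPKM ± 16.4 (SD, n = 6), and the sample values of this pair of genes overlapped. Dmd (70.1 FPKM ± 6.12), Dtna (61.7 FPKM ± 5.52) and Dag1 (49.1 FPKM ± 5.86, each SD, n = 6) formed a middle group of the dystrophin complex whose neighbours overlapped as well. At the low end stood Trpv4 with 11.8 FPKM ± 4.39, Aqp9 with 10.1 FPKM ± 1.75 and Utrn, the paralogue of dystrophin, with 5.27 FPKM ± 0.728 (SD, n = 6). Trpv4 and Aqp9 overlapped in range. Thus dystrophin transcripts stood far above utrophin transcripts per length in these cells.

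Aqp4 (NCBI gene 11829, chromosome 18, 15389394 to 15410982 in RefSeq's GRCm38.p6) stood lower in each STZ sample than in the lowest vehicle sample. It had 1325, 1071 and 1163 normalised CPM (read counts scaled to library size after TMM scaling) in the vehicle samples. The STZ samples had 754, 916 and 884 CPM. The means were 1186 ± 128 and 851 ± 85.8 CPM (SD, n = 3 per group), a change of -28.2% (log2 fold change -0.48, SE 0.12). With edgeR's quasi-likelihood test the unadjusted p was 0.00383 and the adjusted p 0.28, so the difference did not pass the adjustment over all tested genes. By DESeq2 it did, with an adjusted p of 0.0169, though its fold change stayed under the limit of 1.5 that defines a call here. Over the edgeR alternatives and the omission of single samples, the log2 fold change stayed between -0.56 and -0.40. In bulk samples, fewer cells with Aqp4 and less Aqp4 RNA per cell cannot be told apart.

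Measured against the mean of the 8 astrocyte markers in the same sample, Aqp4 went from a log2 ratio of 0.35 ± 0.10 with vehicle to -0.11 ± 0.19 with STZ (SD, n = 3). The difference of -0.46 was close to the one before this scaling, and the groups again did not overlap (exact permutation test, two-sided, p = 0.1, the smallest that 3 samples against 3 allow). On this scale the groups were parted in Aqp9, Dag1, Mlc1 and Hepacam as well, and the share over all genes was not counted. Over the same samples the mean of the astrocyte markers differed by -0.02 on the log2 scale, with single markers on either side of it. Aldh1l1 differed by -0.22 (edgeR's unadjusted p = 0.0296), Slc1a2 by -0.11 (edgeR's unadjusted p = 0.259) and Gjb6 by 0.27 (edgeR's unadjusted p = 0.0261). In these markers the groups did not overlap, as in 9.85% of all tested genes on the lower side and 8.64% on the higher side. The sample with the highest Aqp4, vehicle replicate 1, had the lowest endothelial marker sum (28.9 FPKM), and the sample with the lowest Aqp4, STZ replicate 1, had the highest (209 FPKM). The part of these cells in the difference of Aqp4 was not tested.

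**Figure D1:**
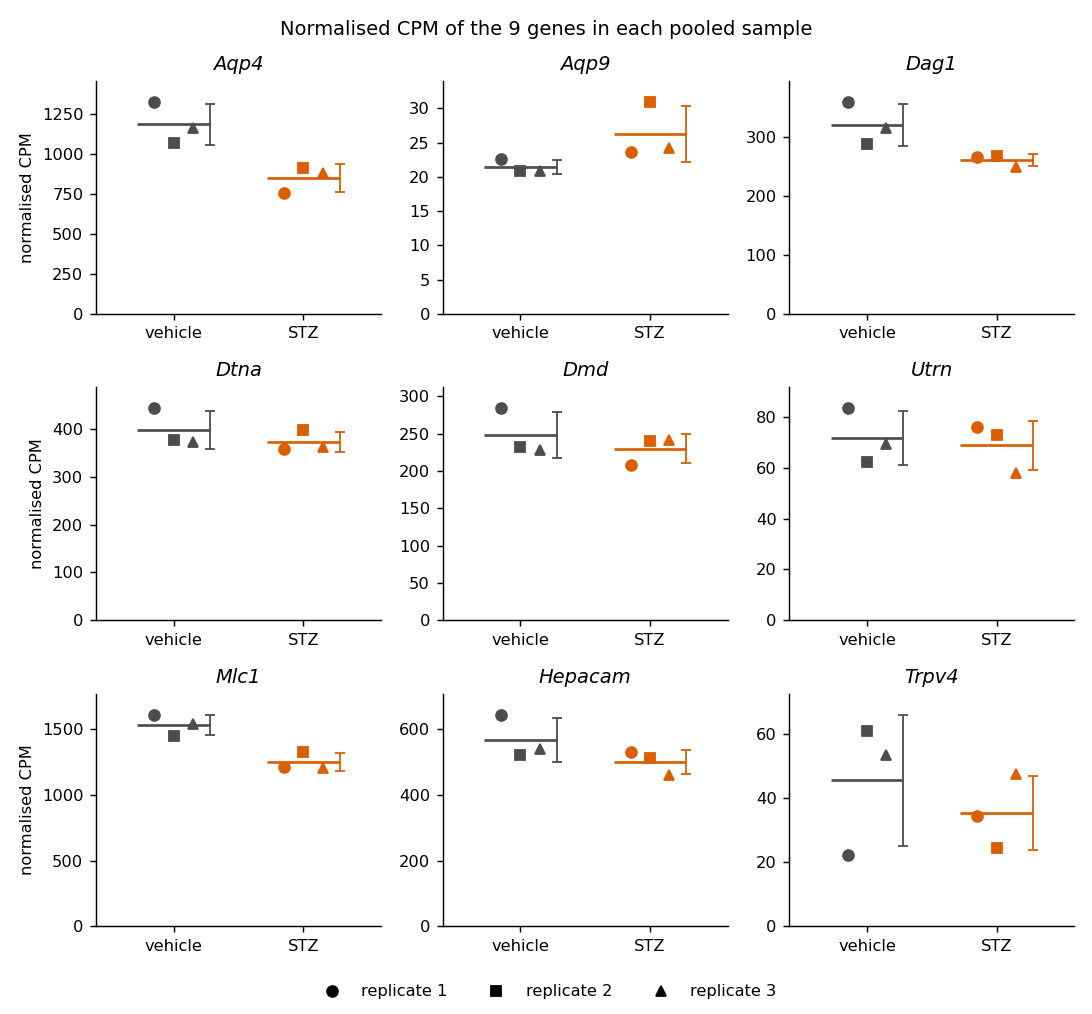
Normalised CPM of the 9 genes in each pooled sample, with vehicle in grey and STZ in orange. Points are samples, shaped by replicate number, and bars give the group mean with its SD on axes that start at 0. Aqp4, Dag1 and Mlc1 lie lower with STZ without overlap of the groups, Aqp9 lies higher without overlap, and the other 5 genes overlap.

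Of the 9 genes, 0 passed an adjusted p under 0.05 with a fold change over 1.5 in edgeR's quasi-likelihood test, against 5 of all 22337 tested genes (0.0224%). At an unadjusted p under 0.05 stood 4 members, of which 3 were lower in STZ (Aqp4, Dag1 and Mlc1, where the background over all genes was 5.65%) and 1 was higher (Aqp9, with a background of 5.63%). The same 4 genes did not overlap between the groups, 3 lower with a background of 9.85% and 1 higher with a background of 8.64%. DESeq2 gave an adjusted p under 0.05 to 1 member, Aqp4, on the lower side, where 1.08% of genes did so, and to 0 members on the higher side, where 0.993% did. The median log2 fold change of the members was -0.18 and that of all tested genes 0.01. Of the 9 values 8 were negative, against 10737 of all 22337 tested genes. With any one of the 6 samples left out, Aqp4, Dag1 and Mlc1 kept unadjusted p-values of at most 0.0149, 0.0470 and 0.0429 in edgeR's test.

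Among the 4 dystrophin complex genes of the 9 members, Dag1 differed most. Dag1 (chromosome 9, 108204861 to 108263977), whose product spans the membrane and binds the basal lamina, had 359, 287 and 315 CPM with vehicle and 265, 267 and 249 CPM with STZ. Every STZ sample lay below every vehicle sample, and the STZ samples lay close together. Its log2 fold change of -0.30 (SE 0.10) had an unadjusted p of 0.0146 and an adjusted p of 0.345 from edgeR. DESeq2's adjusted p was 0.185.

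Dtna encodes alpha-dystrobrevin, a cytoplasmic partner of dystrophin. Dtna (chromosome 18, 23310006 to 23659719) had 443, 377 and 373 CPM with vehicle and 359, 398 and 363 CPM with STZ. Vehicle replicate 1 stood above the rest, and the remaining 5 samples were mixed. Between the groups it differed by -0.09 on the log2 scale (SE 0.09, edgeR's adjusted p = 0.741).

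Dmd (chromosome X, 82814664 to 85205050), the gene of dystrophin, had 284, 233 and 228 CPM with vehicle and 208, 240.0 and 242 CPM with STZ. The groups overlapped, with the extremes in vehicle replicate 1 and STZ replicate 1. On the log2 scale its difference was -0.11 (SE 0.11, edgeR's adjusted p = 0.734). Utrn (chromosome 10, 12382187 to 12869888), which encodes utrophin, had 83.4, 62.3 and 69.6 CPM with vehicle and 76.1, 72.8 and 57.8 CPM with STZ. Its log2 fold change of -0.06 was smaller than its SE of 0.14 (edgeR's adjusted p = 0.899) and took the other sign when vehicle replicate 1 (0.06) or STZ replicate 3 (0.05) was left out. The ratio of Dmd to Utrn ran from 3.27 to 3.74 with vehicle and from 2.74 to 4.18 with STZ, so the groups overlapped in the balance of both genes.

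Mlc1 and Hepacam encode partners, since Hepacam escorts Mlc1 to contacts between astrocytes. Mlc1 (chromosome 15, 88955884 to 88982693) had 1606, 1450 and 1534 CPM with vehicle and 1214, 1324 and 1207 CPM with STZ. The groups were parted without overlap, with the smallest gap between vehicle replicate 2 and STZ replicate 2. Its log2 fold change of -0.29 (SE 0.09) had an unadjusted p of 0.0119 and an adjusted p of 0.326 from edgeR, and an adjusted p of 0.0868 from DESeq2. Hepacam (chromosome 9, 37367356 to 37386572) had 643, 520.5 and 538 CPM with vehicle and 529, 511 and 459.7 CPM with STZ. STZ replicate 1 lay above vehicle replicate 2, so these groups overlapped, and the difference on the log2 scale was -0.18 (SE 0.11, edgeR's adjusted p = 0.548). The Mlc1 to Hepacam ratio was 2.50, 2.79 and 2.85 with vehicle and 2.29, 2.59 and 2.63 with STZ, a log2 difference of -0.11 (exact permutation test, two-sided, p = 0.3).

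Aqp9 was the member with the opposite sign. Aqp9 (chromosome 9, 71110659 to 71167849) had 22.6, 20.8 and 20.8 CPM with vehicle and 23.6, 30.9 and 24.3 CPM with STZ. The lowest STZ sample stood only slightly above the highest vehicle sample, and STZ replicate 2 stood apart at the top. Its log2 fold change of 0.30 (SE 0.12) had an unadjusted p of 0.0435 and an adjusted p of 0.429 from edgeR. Without STZ replicate 2 the log2 fold change was 0.16 and the unadjusted p 0.167 in edgeR's test, and without vehicle replicate 2 or 3 the unadjusted p from edgeR was 0.128 or 0.129.

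Trpv4 (chromosome 5, 114622152 to 114658435) varied most between replicates. It had 22.3, 61.0 and 53.5 CPM with vehicle and 34.5, 24.4 and 47.5 CPM with STZ, a coefficient of variation of 45.0% and 32.7%. The lowest value was in vehicle replicate 1, inside the group with the higher mean. The difference on the log2 scale was -0.36 with an SE of 0.38 (edgeR's adjusted p = 0.745). Without vehicle replicate 1 it was -0.70, with an unadjusted p of 0.0248 and an adjusted p of 0.417 from edgeR. The summed choroid plexus and ependymal markers were 4331, 12226 and 13024 FPKM in the vehicle samples and 8683, 7069 and 11888 FPKM in the STZ samples. Ranked from low to high, the samples stood in the same order for these markers as for Trpv4, except that vehicle replicates 2 and 3 changed places. The part of choroid plexus or ependymal cells in the level of Trpv4 was not tested.

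**Figure D2:**
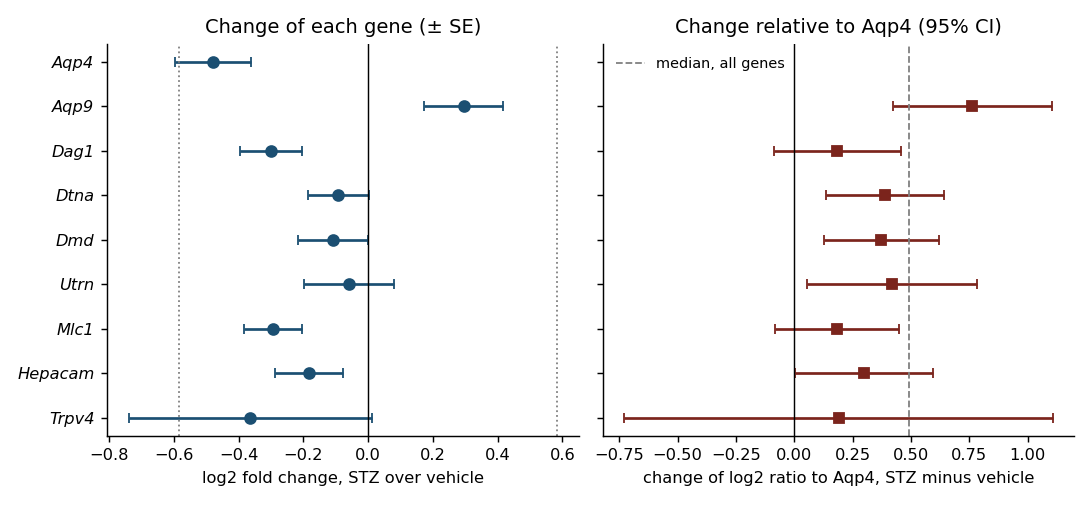
Left, log2 fold change of STZ over vehicle for the 9 genes with its standard error, with dotted lines at a fold change of 1.5. Right, change of the log2 ratio of each other gene to Aqp4 with its 95% confidence interval, with a dashed line at the median of all tested genes (0.49). All 8 ratios moved above 0 in mean, between 0.18 and 0.76, which follows from Aqp4 having the lowest log2 fold change of the 9 genes (-0.48).

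Whether the complex followed Aqp4 was measured first as a ratio within each sample. The log2 CPM of each gene minus that of Aqp4 was compared between the groups with limma across 22336 genes, so the scaling of the libraries cancels. Of the other 8 members, 3 passed an adjusted p under 0.05, all 3 higher against Aqp4 in STZ. Over all genes, 23.5% did so, and 0.0448% moved the other way, where 0 members were found. As Aqp4 itself was lower in STZ, the median gene changed by 0.49 relative to it, and a share of 3 in 8 has to be read against that background.

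Aqp9 had the widest shift. Its log2 ratio to Aqp4 was -5.87, -5.68 and -5.80 with vehicle and -5.00, -4.89 and -5.18 with STZ, a difference of 0.76 (95% confidence interval 0.42 to 1.10, adjusted p = 0.0380 from limma). In linear terms the CPM of Aqp4 over that of Aqp9 was 51.4 to 58.6 with vehicle and 29.6 to 36.4 with STZ. Dtna stood at -1.58, -1.51 and -1.64 with vehicle and at -1.07, -1.20 and -1.28 with STZ, a difference of 0.39 (95% confidence interval 0.14 to 0.64, adjusted p = 0.0423 from limma). For Dmd the ratio was -2.22, -2.20 and -2.35 with vehicle and -1.86, -1.93 and -1.87 with STZ, a difference of 0.37 (95% confidence interval 0.13 to 0.62, adjusted p = 0.0429 from limma). These 3 differences were larger than the SDs within the groups. They lost the adjusted threshold with any one sample omitted, except for Aqp9 and Dtna without vehicle replicate 2, while the size of the differences stayed between 0.33 and 0.84. Over all genes the share past the threshold was 21.3% without vehicle replicate 2 and 0% to 5.14% without any other sample.

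The ratio of the remaining 5 members did not pass. Utrn differed by 0.42 (95% confidence interval 0.05 to 0.78, adjusted p = 0.0716 from limma) and Hepacam by 0.30 (0.00 to 0.60, adjusted p = 0.0972). Dag1 (0.18, interval -0.09 to 0.46, adjusted p = 0.226 from limma) and Mlc1 (0.18, interval -0.08 to 0.45, adjusted p = 0.216 from limma) had the smallest differences. In Utrn, Hepacam, Dag1 and Mlc1 alike, every STZ ratio still lay above every vehicle ratio (exact permutation test, two-sided, p = 0.1 for each). How many of all genes do so in this ratio was not counted. As the median gene changed by 0.49 relative to Aqp4, this lack of overlap is not read as a result about these genes. For Trpv4 the interval from -0.73 to 1.11 was too wide to place it. The ratio of Mlc1 to Dag1 itself was 4.47 to 5.04 with vehicle and 4.58 to 4.96 with STZ, a log2 difference of 0.00 (exact permutation test, two-sided, p = 1.0).

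The second measure was the correlation with Aqp4 over the 6 samples, on log2 CPM with a prior count of 2 and with p-values from all pairings, adjusted over the 8 genes. Mlc1 had Pearson's r = 0.96 (exact permutation p = 0.00556, adjusted 0.0444) and Spearman's rho = 0.94 (exact permutation p = 0.0167, adjusted 0.0667). Dag1 had r = 0.90 (exact permutation p = 0.0139, adjusted 0.0556) and rho = 0.94 (exact permutation p = 0.0167, adjusted 0.0667). Both genes kept the order of the samples by Aqp4 except for STZ replicates 1 and 3, and both stood lower in STZ themselves. The pairings ignored the treatment, so these p-values cannot part a shared difference between the groups from a relation between samples. Inside STZ r was 0.60 for Mlc1 and -0.26 for Dag1, and inside vehicle 0.98 and 0.9997 (n = 3 each).

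Dmd (r = 0.73, rho = 0.43), Dtna (r = 0.72, rho = 0.77) and Hepacam (r = 0.69, rho = 0.66) had an adjusted exact permutation p of 0.187 for r. For rho it was 0.559 for Dmd, 0.274 for Dtna and 0.350 for Hepacam, with unadjusted exact permutation p-values of 0.0917 to 0.117 for r and 0.103 to 0.419 for rho. Utrn (r = 0.27, rho = 0.26), Trpv4 (r = -0.06, rho = -0.09) and Aqp9 (r = -0.45, rho = -0.54) had adjusted exact permutation p-values of 0.556 to 0.903 for r and 0.476 to 0.919 for rho. Of the 10397 genes with a mean of at least 10 CPM, 4.49% had an r over 0.9 with Aqp4 and the median r was 0.05. Of these genes, 1.07% lay above Mlc1 in r and 4.75% above Dag1.

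Without the 2 samples farthest from the median of Aqp4, which were vehicle replicate 1 and STZ replicate 1, r was 0.97 for Mlc1, 0.98 for Dag1 and 0.84 for Hepacam (exact permutation p = 0.0833 for each, the smallest that 4 samples allow). It was -0.10 for Dtna (exact permutation p = 0.917) and -0.997 for Dmd (exact permutation p = 0.0833). For Trpv4 it was 0.60 (exact permutation p = 0.417), for Utrn 0.29 (p = 0.583, exact permutation) and for Aqp9 -0.76 (p = 0.333, exact permutation). The samples left were 2 of each group, with Aqp4 apart between them, so r over them partly restates the difference between the groups. This r cannot tell whether Dtna and Dmd follow Aqp4. With all samples kept, r inside vehicle and inside STZ was 0.88 and 0.98 for Dmd and 0.90 and 0.71 for Dtna (n = 3 each). With the group means removed, the deviations of Dmd from its group mean correlated with those of Aqp4 at 0.91, those of Dtna at 0.81, Mlc1 at 0.79, Aqp9 at 0.67, Dag1 at 0.62, Hepacam at 0.38, Utrn at 0.27 and Trpv4 at -0.66, a description over 6 points that share 2 group means. For Aqp9 the sign inside the groups was therefore the opposite of that over all 6 samples.

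**Figure D3:**
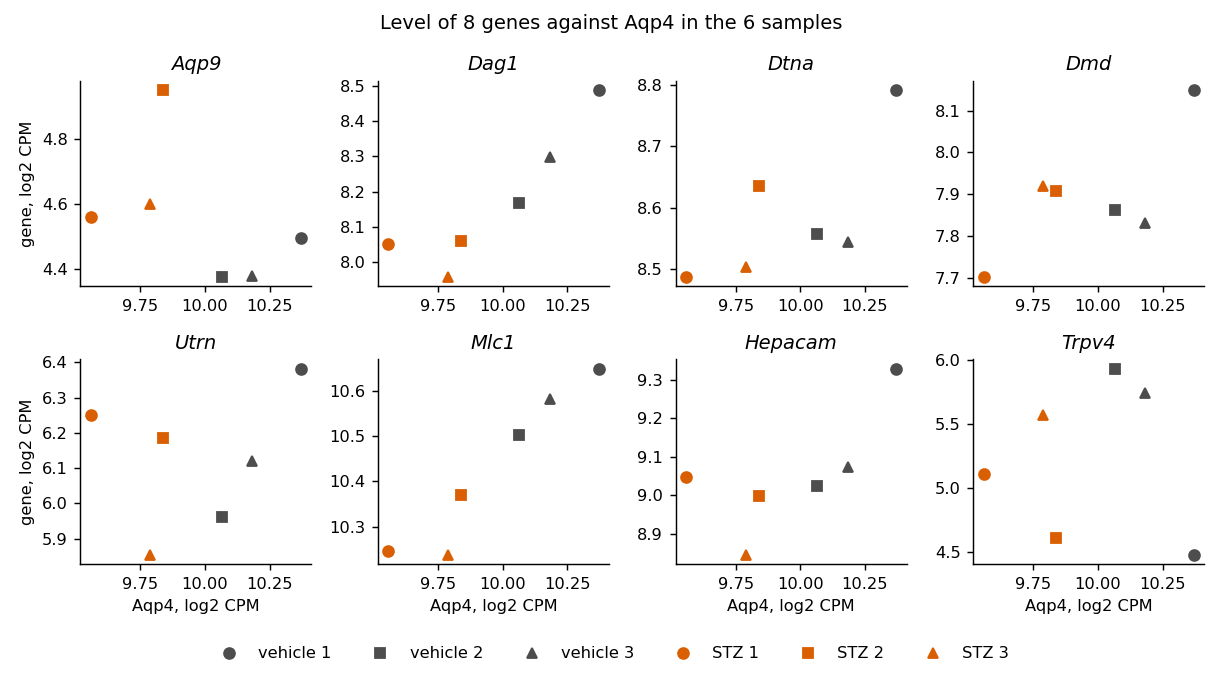
Log2 CPM of the other 8 genes against log2 CPM of Aqp4 in the 6 samples, vehicle in grey and STZ in orange, shaped by replicate number. Mlc1 (r = 0.96) and Dag1 (r = 0.90) line up with Aqp4. Dmd and Dtna do so over all samples only with vehicle replicate 1 and STZ replicate 1 included, and Aqp9 (r = -0.45) splits by group.

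The table lists both a count and an FPKM for every gene, and together these give a mean transcript length over the molecules counted, since FPKM divides by length. For 3034 genes with a single listed transcript and at least 100 counts in every sample, this implied length was 1.06 times the annotated one in the median, with an interquartile range of 1.02 to 1.07. Most members gave lengths near their longest coding transcript in the GENCODE annotation (vM21). Aqp4 gave 5574 bases ± 22.6 (SD, n = 6), 110% of that length, Mlc1 2718 bases ± 75.8 (97.0%) and Utrn 13345 bases ± 324 (108%).

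Dmd differed from this pattern. Its counts and FPKM values implied 3573, 3432 and 3431 bases in the vehicle samples and 3312, 3134 and 3578 bases in the STZ samples, a mean of 3410 ± 168 (SD, n = 6). That was 22.9% of the longest coding transcript of 14910 bases, and between the lengths of the short coding transcripts of 4438 and 1858 bases. A mean over molecules this low means that most Dmd molecules were assigned to short transcripts, although a few long molecules can hold a large share of the counts. The groups did not differ in this length (3479 ± 81.9 with vehicle and 3341 ± 223 with STZ, SD, n = 3, exact permutation test, two-sided, p = 0.5), with overlapping samples. Short dystrophins such as Dp71 keep the part that binds dystroglycan and dystrobrevin, lack the part that binds actin, and are known as the dystrophins of glia.

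Long and short Dmd transcripts start at different promoters, and RefSeq's GRCm38.p6 table holds one of each, both on the plus strand, with 250 bases before and 50 after the start. They are shown because the long and the short coding transcripts begin at different ones. The start in the first window, chrX:82948620-82948919, lies 33 bases before the coding transcript of 14910 bases, and a noncoding transcript of 3690 bases with a retained intron begins at it. As that length is close to the implied one, the implied length does not tell which promoter the molecules came from. The start in the second window, chrX:85048045-85048344, lies 118 bases before the common start of both short coding transcripts. Capitals mark matches on either strand to a TATA box (TATAAA or TTTATA), a GC box (GGGCGG or CCGCCC) or a CCAAT box (CCAAT or ATTGG).
Dmd promoter of the long transcript: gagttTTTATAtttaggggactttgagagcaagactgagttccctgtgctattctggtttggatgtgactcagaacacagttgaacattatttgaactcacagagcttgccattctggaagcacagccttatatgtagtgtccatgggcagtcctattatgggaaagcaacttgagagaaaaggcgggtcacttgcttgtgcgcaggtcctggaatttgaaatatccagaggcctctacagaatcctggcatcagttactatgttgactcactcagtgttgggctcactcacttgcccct
Dmd promoter of the short transcripts: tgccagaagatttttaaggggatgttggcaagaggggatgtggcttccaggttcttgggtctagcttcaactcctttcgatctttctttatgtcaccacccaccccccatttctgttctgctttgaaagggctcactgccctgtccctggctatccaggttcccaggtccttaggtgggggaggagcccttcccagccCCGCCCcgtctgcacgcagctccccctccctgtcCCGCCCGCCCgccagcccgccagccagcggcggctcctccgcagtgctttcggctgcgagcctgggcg

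The windows differed in base composition. The window of the long transcript held 45.7% G and C, 2 CG dinucleotides, 1 TATA box match and 0 GC box matches. The window of the short transcripts held 62.7% G and C, 14 CG dinucleotides, 0 TATA box matches and 3 GC box matches, of which one pair overlaps. Neither held a CCAAT match. Over all 32851 promoter windows of the table the medians were 52.7% G and C and 7 CG dinucleotides, while 13.6% held a TATA box, 35.7% a GC box and 37.4% a CCAAT box. These are matches of letters and say nothing of whether a factor bound there.

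**Figure D4:**
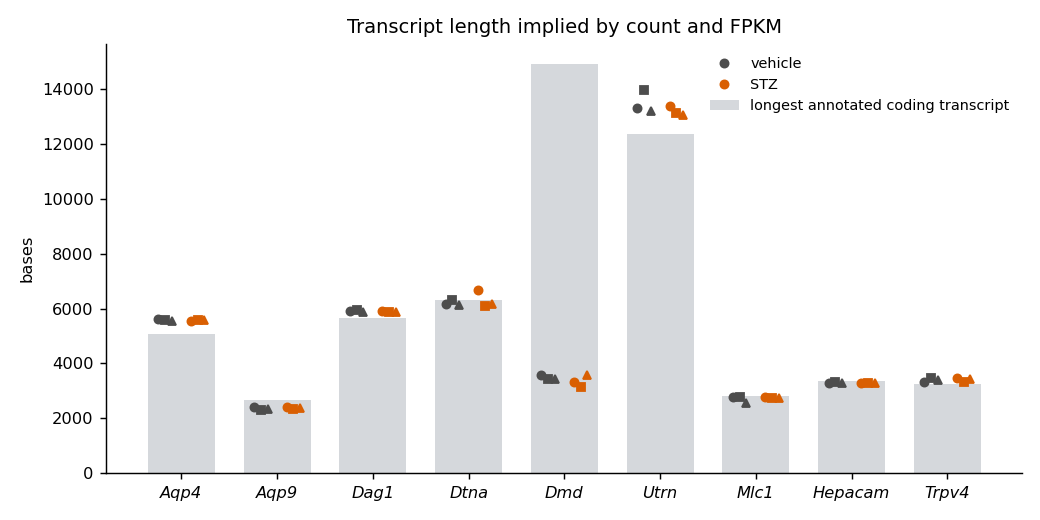
Transcript length in bases implied by the deposited count and FPKM of each gene in each sample (points, vehicle in grey and STZ in orange), beside the longest annotated coding transcript (light bars). Dmd lies at 3134 to 3578 bases against 14910, while the other 8 genes lie near their bars.

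The rest of the dystrophin complex held 14 further genes, all tested, of which 0 were called. At an unadjusted p under 0.05 in edgeR's test, 4 were lower and 1 was higher in STZ (background 5.65% and 5.63%), 9 were neither, and the median log2 fold change was -0.13 against 0.01 over all genes. Drp2, a further dystrophin relative, differed by -0.36 on the log2 scale (SE 0.11, edgeR's unadjusted p = 0.0102). The sarcoglycan Sgcb differed by -0.17 (SE 0.07, edgeR's unadjusted p = 0.0360), with adjusted p-values from edgeR of 0.317 for Drp2 and 0.411 for Sgcb. Sgcz was at 0.0496 CPM ± 0.0127 with vehicle and 0.113 CPM ± 0.0528 with STZ (SD, n = 3), around the level that 3 counts give in a library (0.0511 to 0.0571 CPM), so its fold is not given.

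The enzymes that build the sugar chain of dystroglycan were 13 genes, all tested, with 0 called. At an unadjusted p under 0.05 stood 3, all lower in STZ (background 5.65%), and 10 did not pass. The median log2 fold change was -0.11, with 11 of 13 values negative, against 10737 of all 22337 tested genes. Pomt1 and Pomt2, the protein O-mannosyltransferases that start the chain, had log2 fold changes of -0.30 (standard error 0.08, unadjusted p = 0.00598) and -0.34 (standard error 0.09, unadjusted p = 0.00676), each with an adjusted p of 0.301 from edgeR. In both, the groups did not overlap, as in 9.85% of all genes on the lower side. Pomgnt1, which adds N-acetylglucosamine to O-mannose, had -0.41 (standard error 0.14, unadjusted p = 0.0220, adjusted p = 0.371 from edgeR).

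On the outer side, 8 of 9 genes of matrix ligands were tested and 0 had an unadjusted p under 0.05, with a median log2 fold change of 0.00. Lamb2, the laminin beta chain with the highest level (11.3 FPKM ± 1.45, SD, n = 6), had a log2 fold change of -0.21 (unadjusted p = 0.140 from edgeR). Agrn, the gene of agrin, had 6.53 FPKM ± 0.894 (SD, n = 6) and a log2 fold change of -0.05 (unadjusted p = 0.735 from edgeR).

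Partners of the endfoot in ion transport and junctions were 10 genes, all tested, with 0 called. At an unadjusted p under 0.05 stood 5 that were lower (background over all genes 5.65%) and 2 that were higher in STZ (background 5.63%), and 3 did not pass. The median log2 fold change was -0.27, lower than that of the 9 members. Atp1b2, the glial sodium pump beta subunit, had 1399 ± 191 CPM with vehicle and 1031 ± 73.7 CPM with STZ (SD, n = 3), which is -0.44 on the log2 scale (SE 0.12, edgeR's unadjusted p = 0.00669 and adjusted p = 0.301). DESeq2's adjusted p was 0.0359 for Atp1b2. Gpr37 had -0.45 (standard error 0.14, unadjusted p = 0.0117), and Lrrc8a, a subunit of the volume-regulated anion channel, had 0.31 (standard error 0.09, unadjusted p = 0.0102), with adjusted p-values from edgeR of 0.326 and 0.317. In all 3 of these genes the groups did not overlap, where 9.85% of all genes lay lower and 8.64% higher without overlap.

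Of 10 other aquaporins, 5 had a count in every sample and were tested, and 0 of the 5 had an unadjusted p under 0.05. Aqp8 and Aqp12 were listed at 0 in all 6 samples. Aqp11 (16.9 FPKM ± 1.76) and Aqp1 (6.09 FPKM ± 1.78, SD, n = 6) had the highest levels of the list. Aqp11 had a log2 fold change of 0.12 (unadjusted p = 0.298 from edgeR). Aqp1, known as the water channel of the choroid plexus, had a log2 fold change of -0.20 (unadjusted p = 0.526 from edgeR).

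**Figure D5:**
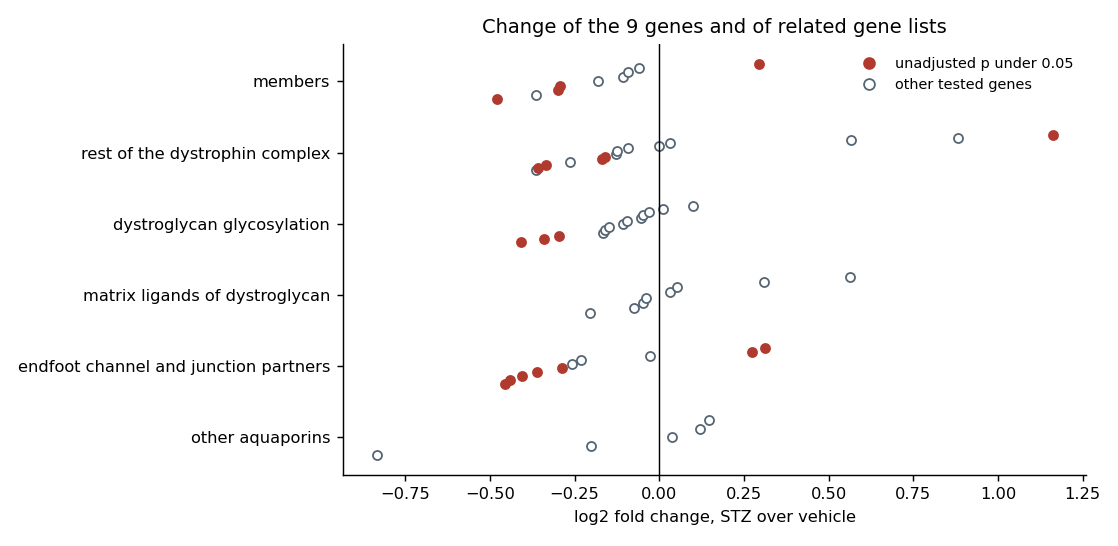
Log2 fold change of STZ over vehicle for the 9 genes (members) and for the tested genes of 5 related lists, 1 point a gene. Filled points have an unadjusted p under 0.05 in edgeR's test, and 0 of all points passed the adjusted threshold. The medians run from -0.27 for the endfoot partners to 0.04 for the other aquaporins.

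Among all genes with a mean of at least 10 CPM, the 5 whose log2 CPM correlated highest with Aqp4 over the 6 samples were Mfn1 (r = 0.997), Efna2 (r = 0.996), Myorg (r = 0.996), Negr1 (r = 0.996) and Fam171b (r = 0.994). Their log2 fold changes ran from -0.39 in Efna2 to -0.13 in Mfn1, all smaller in size than that of Aqp4. None of the 9 members was among them.

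Counting error was small for the 9 genes, whose counts ran from 1079 in Aqp9 to 87870 in Mlc1. Other genes that overlap a member in the annotation and are listed with counts each held at most 0.258% as many counts as that member, in the case of Aqp9. For Dmd 3 of 7 overlapping genes were listed and for Utrn 0 of 2, so the unlisted ones could not be judged. Whether strand was used in counting is not given in the sources used here, and without it reads of a member and of a gene on the opposite strand cannot be told apart.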

How the data were processed

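RNA sequencing of sorted astrocytes from 6 pooled samples was analysed, 3 with vehicle and 3 with STZ, grouped by the treatment in the sample labels. The deposited read counts per gene are whole numbers, and the authors did not normalize them. The authors also deposited FPKM values, which divide by transcript length and mapped fragments, and TPM values, which add up to just under the full scale in each sample. The submitters' processing notes name Trimmomatic 0.38, HISAT2 2.1.0, SAMtools 1.9 and StringTie 2.1.3b, and the build mm10. The annotation is not given in the sources used here. Columns of samples outside the labels numbered 0.

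The 9 genes and the related lists were chosen with earlier results of these data known. All 9 are named, and in each related list up to 4 genes with the smallest unadjusted p under 0.05, otherwise the 2 with the highest mean FPKM. Also named are the 5 genes with the highest r to Aqp4 among those with a mean of at least 10 CPM. Some genes that this rule names are not reported here. The 2 aquaporins listed at 0 were named after their values were seen.

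Genes with a count in every sample, the filter stated in the study's methods, entered the quasi-likelihood test of edgeR 4.0.16 under R 4.3.3 (TMM scaling, group as the factor, Benjamini-Hochberg over 22337 genes, two-sided). Ratios to Aqp4 were tested with limma 3.58.1. Correlations used exact permutation over all pairings in scipy 1.17.1. The scripts were tested on simulated data. Alternatives were DESeq2 1.42.0 (the tool of the study), its size factors, other filters on low counts, robust fitting, TPM with a pseudocount of 1 or 0.1, the replicate number as a block, another prior count and the omission of each sample. The removal of outlier genes that the study mentions was not repeated.

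Total counts of 52529048 to 58749115 put 3 counts at 0.0511 to 0.0571 CPM, a floor for counting error alone. By gene number, 45679 of 45777 genes matched RefSeq's GRCm38.p6, and 7 of the 9 genes had a promoter window there. Each sample is a pool of mice, so p-values measure the spread between pools. Pools are not stated to differ in day or batch.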

Additional observations from a re-analysis of the deposited data

How the results depend on the processing

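Settings moved the counts of calls more than the values of single genes. Over all genes, DESeq2 called 234 genes and robust fitting 10 in place of 5, and 0 were called on log2(TPM + 0.1), on log2(TPM + 1) or with the replicate block. Leaving out single samples gave 0 to 1, the 1 being without vehicle replicate 3. Of the 9 genes, 0 were called under any of these. DESeq2 gave Aqp4 a log2 fold change of -0.48 and brought it past the adjusted threshold, and this threshold without a limit on the fold change was chosen after seeing the data. With the replicate block, 2 of the 9 genes (Aqp4 and Dag1) had an unadjusted p under 0.05 in place of 4. With it, 0 members in place of 3 had a ratio to Aqp4 past the threshold, and the share over all genes fell from 23.5% to 1.64%. Same-numbered samples deviated with correlations of -0.18 to -0.10 over 3 pairs. The shared number stands only in the sample titles, while the sample descriptions number the STZ samples onward from the vehicle samples. No pairing is stated behind the shared number, and whether these samples share more than the number was not tested. Leaving out single samples left 0 to 2 members with such a ratio, which is 2 without vehicle replicate 2 and 0 without any of the other 5. The share over all genes was 21.3% without vehicle replicate 2 and 0% to 5.14% without any of the other 5, so the members' loss came with a loss over all genes. The causes were not tested.

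Utrn's log2 fold change ran from -0.17 to 0.060 (without vehicle replicates 2 and 1), and Trpv4's change relative to Aqp4 ran from -0.34 to 0.53 when single samples were left out, changing sign. Without the 2 samples farthest from the median of Aqp4, the 4 samples left allow no p under 0.0833, so 0 correlations could pass in place of 1, and r was -0.10 for Dtna, -0.997 for Dmd and 0.60 for Trpv4. Scaling to 8 astrocyte markers, chosen after seeing the data, kept the sign of all 9 genes. The mean of these markers differed by only -0.02, smaller in size than the change of any of the 9 genes, so this scaling could not change a sign. With 3 pools a group, exact tests between the groups cannot go below 0.1. Depth was no limit for the 9 genes.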
